A study of Sus scrofa with 32 samples.

Results

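The response to pregnancy that blood vessels (BV) and stroma (S) of the porcine endometrium share was examined over the 10845 genes that passed the authors' filter on low counts in both compartments, of 30185 genes counted. The values come from 16 of the 32 libraries of the series, 1 BV and 1 S library from each of 8 gilts (young female pigs, *Sus scrofa*). Gilts C40, C42, C78 and C128 were cyclic controls (nonpregnant) and gilts P39, P41, P43 and P139 were pregnant (the letter gives the status and the number is that of the labels), so that each group of a compartment holds 4 animals. All gilts were prepuberal, ovulated after gonadotropin treatment (eCG, then hCG) and were slaughtered on Day 14. The pregnant gilts had received semen and the cyclic gilts only the cell-free supernatant of semen of the same boar, so that both groups had contact with seminal fluid. Pregnant endometrium came from the hyperemic zones, where a conceptus had been attached, which limits the pregnant group to these sites. The series also holds luminal (LE) and glandular epithelium (GE), used here only as a measure of where a gene is most abundant.

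On Day 14 the pig conceptus has elongated and starts to attach to the luminal epithelium, while it releases estrogens, the cytokine IL1B2 and interferons. Vessels and stroma lie beneath the epithelium and are reached by these signals, by hormones from the ovary and by mediators from the epithelium. Endometrial vessels consist of endothelium, smooth muscle and pericytes, and the stroma of fibroblasts, matrix, capillaries and immune cells. Because bulk RNA was measured, fewer cells of a type and less RNA per cell cannot be told apart in any result below.

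In all, 3 kinds of call were made for each gene, all at a false discovery rate of 5%. The average effect compares the summed BV and S counts of a gilt, pregnant against cyclic. The sum weights each library by its depth and each compartment by its level of the gene. A call can therefore reflect mainly the compartment with the higher level, and is not by itself a shared response. A response in both compartments requires the BV effect and the S effect to pass together with the same sign. The interaction is the S effect minus the BV effect, measured within gilts. Effects are log2 fold changes, pregnant over cyclic, with their standard error (SE), and levels are CPM, counts scaled to library size with TMM factors. Wherever 4 values of a gene are listed, they follow the order of gilts C40, C42, C78 and C128 for cyclic and P39, P41, P43 and P139 for pregnant libraries.

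The 16 libraries held 2415216 to 5388161 counts (median 3131034), of which RN18S and RN5-8S, both ribosomal RNA, made up 11.3% to 16.9% (16.4% to 16.9% in pregnant and 12.8% to 16.1% in cyclic BV, without overlap). Marker levels followed the dissection in part. Smooth muscle markers (12 genes, ACTA2 and MYH11 among them) summed to 7282 to 21749 CPM in cyclic BV but to 2224 to 8869 CPM in pregnant BV, and to 1190 to 2215 CPM in S. Endothelial markers (12 genes, PECAM1 and CDH5 among them) had a median of 2705 CPM in the cyclic and 3141 CPM in the pregnant BV libraries, against 1282 and 1589 CPM in S. The ranges of BV and S overlapped, at 1649 to 3076 against 607 to 1928 CPM in cyclic libraries. In pregnant libraries they were 2017 to 3271 against 1044 to 3084 CPM. In gilt P139 the S library (3084 CPM) lay above the BV library (2017 CPM). Fibroblast markers (12 genes, COL1A1 and DCN among them) were abundant in BV too, at 27281 to 92980 CPM, against 41262 to 107591 CPM in S. Epithelial markers (12 genes, EPCAM and KRT8 among them, all with counts) summed to 3.57 to 54.0 CPM in cyclic BV and 191 to 360 CPM in pregnant BV, without overlap, and to 11.7 to 200.2 CPM in cyclic and 42.8 to 525 CPM in pregnant S, with overlap. In pregnant BV, gilt P139 stood apart, with the lowest endothelial sum (2017 CPM) and the highest smooth muscle, epithelial and lymphatic endothelial sums, the last at 730.1 CPM against 32.0 to 53.9 CPM in the other 3. In cyclic BV, gilt C78 had the highest smooth muscle sum.

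**Figure D1:**
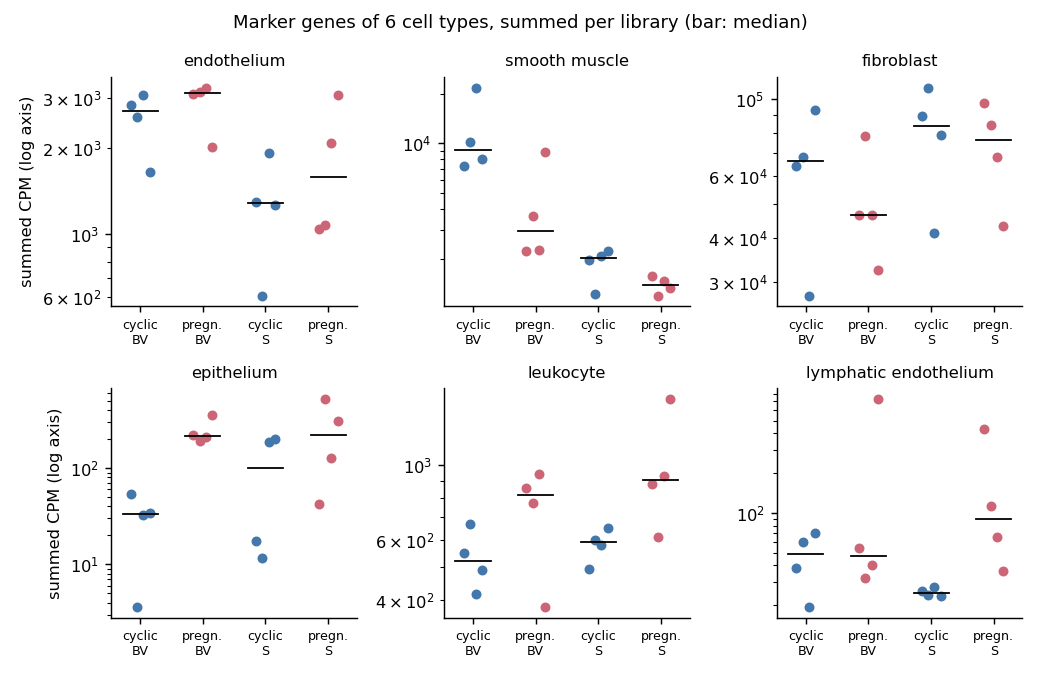
Summed CPM (log axis) of marker genes of 6 cell types in each of the 16 libraries, by compartment and status (blue, cyclic; red, pregnant; black bar, median of 4). Epithelial sums of pregnant BV (191 to 360 CPM) lie above all cyclic BV libraries, the highest smooth muscle sum is that of cyclic gilt C78 in BV, and 1 pregnant BV library (gilt P139) and 1 pregnant S library (gilt P39) carry most of the lymphatic signal.

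The average effect was called for 943 genes (8.7% of those tested), of which 473 were higher (4.36%) and 470 lower (4.33%) in pregnant gilts. Within compartments, 1140 genes (10.5%) were called in BV, 551 higher (5.08%) and 589 lower (5.43%), and 42 (0.387%) in S, 28 higher (0.258%) and 14 lower (0.129%). Of the 42 genes called in S, 33 were also called in BV with the same sign, which is 78.6% of the S calls and 2.89% of the BV calls. Only NR1D1, which was higher, and HSPA5, which was lower, passed the stricter joint test of a response in both compartments (0.0184% of genes, or 0.00922% in each direction). At an unadjusted p under 0.05 in each compartment with the same sign, 1112 genes (10.3%) were found, 531 higher (4.9%) and 581 lower (5.36%). Among the 943 genes with a called average effect, 737 met this looser criterion in both compartments, 145 in BV only, 54 in S only and 7 in neither, a description of the calls themselves. The median effect of the 473 higher genes was 0.93 in BV and 0.73 in S, and that of the 470 lower genes -0.77 in BV and -0.59 in S.

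No gene was called for the interaction in the quasi-likelihood test of edgeR, where the smallest adjusted p was 0.300 and 606 genes (5.59%) had an unadjusted p under 0.05, 328 with a more positive (3.02%) and 278 with a more negative effect in S (2.56%). On the same counts, DESeq2 called 9 genes and the robust GLM of edgeR 29. The median 95% interval of the interaction reached 0.66 to either side of its estimate. For 532 of the 943 genes (56.4%, against 56.9% of all genes) that interval lay within 1 of 0 on the log2 scale. Over all genes the effects in BV and S had a Pearson r of 0.68 and a Spearman rho of 0.65 across 10845 genes, which are not independent replicates and share gilts.

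The balance of the S calls rested on single gilts, since it was 74 higher and 107 lower without C78 and 36 of each without P41. The number of average calls moved with single gilts as well. It was 243 without C40, 225 without C42, 338 without P39 and 255 without P43, and 633, 1032, 807 and 672 without gilts C128, C78, P139 and P41. Higher and lower calls were 140 and 103 without C40, 135 and 90 without C42, 214 and 124 without P39, and 162 and 93 without P43. They were 338 and 295 without C128, 507 and 525 without C78, 364 and 443 without P139, and 362 and 310 without P41. The list counts given below for these fits stand beside these totals over all genes. With the summed epithelial markers as a covariate, the average calls were 78 (49 higher and 29 lower), of which 52 were among the 943. Because this covariate moved with status, neither a kept nor a lost call tells status and epithelial content apart for a gene.

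**Figure D2:**
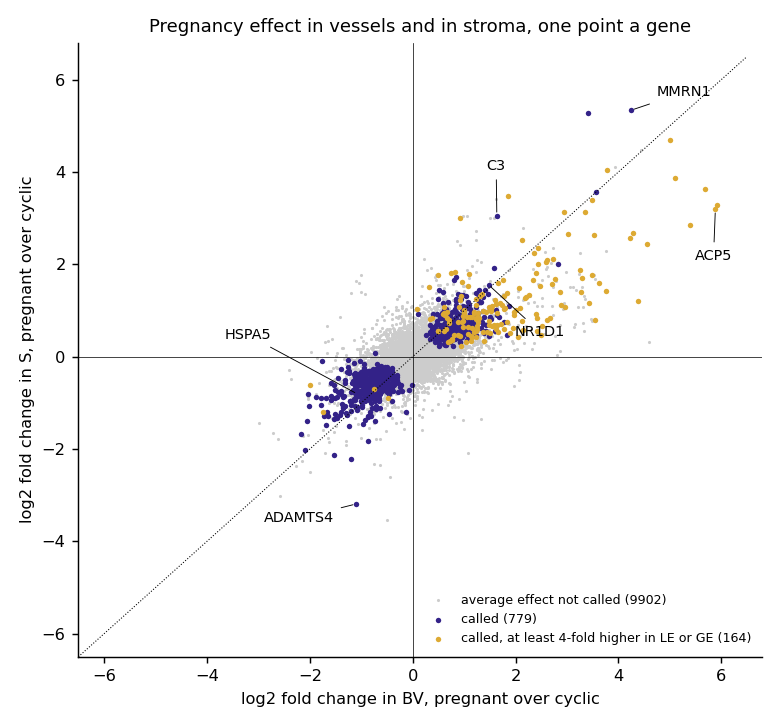
Log2 fold change (pregnant over cyclic) in S against that in BV for 10845 genes, with genes called for the average effect in blue (779) or, where at least 4-fold more abundant in LE or GE, in yellow (164). Called genes lie along the dotted line of equal effects in both directions, and the yellow genes stretch toward larger effects in BV.

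NR1D1 encodes REV-ERB alpha, a heme-binding nuclear receptor that represses transcription in the circadian clock. In cyclic BV its level was 14.1, 14.5, 20.5 and 13.3 CPM, and in pregnant BV 44.4, 41.7, 49.8 and 36.7 CPM. In cyclic S it was 28.9, 30.8, 20.6 and 18.0 CPM, and in pregnant S 98.3, 61.4, 74.8 and 53.0 CPM. Every pregnant library lay above every cyclic library of its compartment, and the pregnant S library of gilt P39 was the highest. The BV effect was 1.48 ± 0.23 (SE, n = 4 against 4, adjusted p = 0.00316) and the S effect 1.56 ± 0.22 (adjusted p = 0.0158), so that NR1D1 rose 2.78-fold in BV and 2.94-fold in S. The interaction was 0.07, with a 95% interval of -0.57 to 0.704.

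HSPA5 encodes BiP, the main Hsp70 chaperone of the endoplasmic reticulum (ER). Its level was 388, 429, 373 and 413 CPM in cyclic BV and 179, 180.3, 210.4 and 197 CPM in pregnant BV. In S, cyclic libraries held 306, 349, 277 and 378 CPM and pregnant libraries 189.8, 207, 163 and 185 CPM. Pregnant libraries were below all cyclic libraries in both compartments, with little spread within groups. HSPA5 fell by 1.06 on the log2 scale in BV (adjusted p = 0.00138) and by 0.81 in S (adjusted p = 0.0184), and the interval of the interaction was -0.12 to 0.64. For both genes the joint call had an adjusted p of 0.0458, close to the threshold. It was lost for both without any single gilt other than cyclic gilt C78, at adjusted p-values between 0.0619 and 0.342, while their average effects were called without each gilt in turn. With the epithelial covariate the adjusted p of the joint test was 0.00792 for NR1D1 and 0.0667 for HSPA5. It was also above 0.05 for both with DESeq2's size factors, with another filter on low counts (filterByExpr) and without the ribosomal RNA genes, at 0.0513 to 0.0639, whereas DESeq2 and the robust GLM called 162 and 164 genes in both compartments, these 2 among them.

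The circadian clock is a feedback loop in which CLOCK and BMAL1 bind E-boxes to activate PER, CRY, NR1D1 and the PAR bZIP factors, whose products repress or relay the cycle. The gene lists here and below were chosen with earlier results of these data known. Their shares beside those of all genes are therefore descriptions and no test of a theme. Of 18 clock genes tested, 6 rose on average (NR1D1, TEF, CRY2, DBP, PER1 and PER2) and none fell, against 4.36% of all genes that rose. Of these 6, NR1D1, DBP and TEF were called in S as well as in BV, where 0.258% and 5.08% of all genes were called higher. The list median was 0.38 in BV and 0.42 in S, against 0.00 and 0.01 for all genes. DBP, an output factor that binds D-boxes, held 6.32, 7.95, 8.61 and 10.4 CPM in cyclic BV against 28.3, 16.8, 19.0 and 17.3 CPM in pregnant BV. In S it went from 8.996, 9.20, 13.3 and 12.7 CPM to 31.9, 20.6, 24.6 and 24.8 CPM. No pregnant library overlapped the cyclic ones, and DBP rose by 1.29 in BV (adjusted p = 0.00542) and 1.19 in S (adjusted p = 0.0437). TEF, a related PAR bZIP factor, had 27.9, 31.0, 30.4 and 40.8 CPM in cyclic BV against 77.8, 74.5, 68.5 and 70.6 CPM in pregnant BV. Its S values were 36.5, 34.3, 46.8 and 28.9 CPM and 79.1, 58.4, 70.0 and 54.1 CPM, again without overlap, and the average effect was 0.96 ± 0.13 (adjusted p = 0.00808).

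PER1, a repressor of the loop that glucocorticoids also induce, differed between the compartments in its values. It held 35.6, 39.8, 37.3 and 39.8 CPM in cyclic BV against 99.8, 84.6, 96.8 and 78.002 CPM in pregnant BV. In S the values were 60.8, 55.5, 70.7 and 67.3 CPM and 105, 82.2, 115 and 50.9 CPM, where gilt P139 had the lowest level of all 8 libraries. The BV effect was 1.24 (adjusted p = 0.00352) and the S effect 0.47 (adjusted p = 0.238), with an interaction of -0.81 (-1.29 to -0.34) that was not called (unadjusted p = 0.00353, adjusted p = 0.853). CRY2, a repressor that is at least 4-fold more abundant in LE or GE than in the lower of BV and S, had an average effect of 0.83 ± 0.13 (adjusted p = 0.0106). That of PER2, named here after its values were seen, was 0.57 (adjusted p = 0.0258). The activators did not pass the test, with average effects of 0.22 for ARNTL (BMAL1) and -0.26 for CLOCK. NFIL3, a repressor of D-box genes that was also named after its values were seen, had effects of 0.38 in BV and -1.16 in S, neither called. The list count stayed between 4 and 8 without single gilts and was 1 with the epithelial covariate. Over all genes 135 to 507 were called higher without single gilts and 49 with the covariate. The hour of tissue collection is not given in the sources used here, and its part in the clock genes was not tested.

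The promoter of PER1 is shown for its canonical E-box, because this motif is the known entry point of CLOCK and BMAL1. In the 250 bases before the annotated 5′ end of 10841 genes (RefSeq, Sscrofa11.1), the E-box CACGTG, which is its own reverse complement, was present in 7.58% of promoters, in 3 of the 18 clock genes and in 2 of the 6 that rose. The D-box TTATGNAA (both strands) was present in 2.18% of promoters and in none of the 6. The E-box is in capitals and the bases run 5′ to 3′ toward the gene:
PER1 (chr12:53376724-53376973, minus strand): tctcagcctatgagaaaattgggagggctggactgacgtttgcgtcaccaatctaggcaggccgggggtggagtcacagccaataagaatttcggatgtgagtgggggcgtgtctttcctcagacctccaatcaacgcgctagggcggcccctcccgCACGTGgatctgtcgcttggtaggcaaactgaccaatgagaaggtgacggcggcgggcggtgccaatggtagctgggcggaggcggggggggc
The E-box of PER1 ends 87 bases before the annotated gene. For NR1D1, DBP, CRY2 and PER2 these letters were absent from the window.

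**Figure D3:**
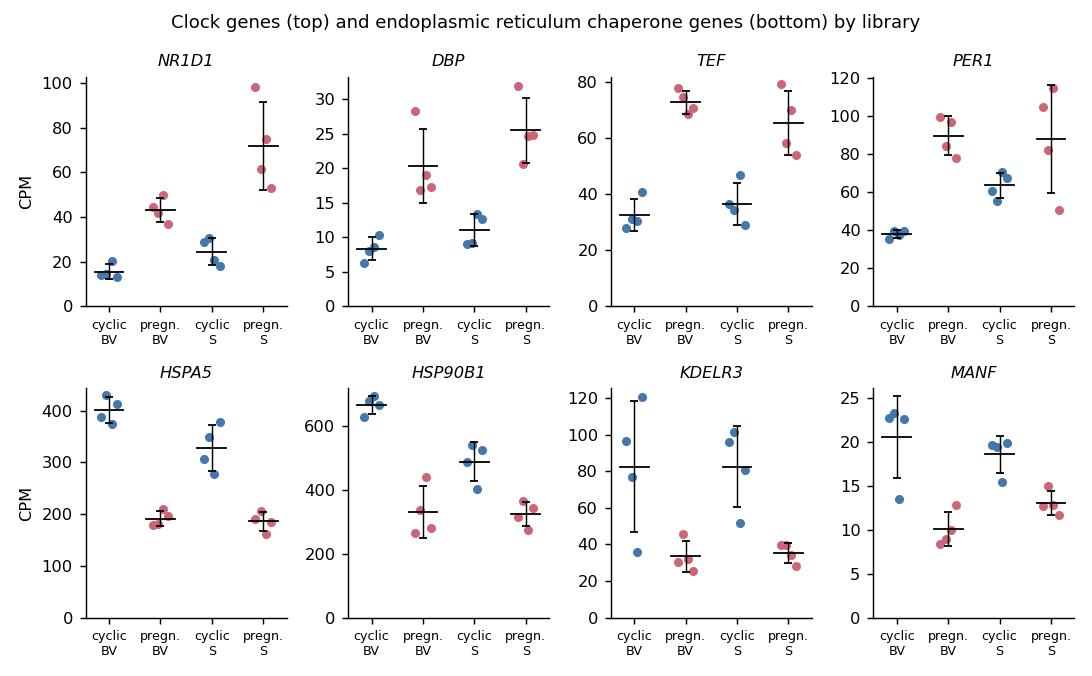
CPM (linear axis from 0) of 4 clock genes and 4 ER chaperone genes in the 16 libraries, by compartment and status, with mean and SD of 4 gilts (blue, cyclic; red, pregnant). NR1D1, DBP and TEF are higher and HSPA5, HSP90B1 and MANF lower in every pregnant library of each compartment, whereas PER1 overlaps in S and KDELR3 in BV.

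ER chaperones fold secreted and membrane proteins, and their genes are induced together by the unfolded protein response. Of 31 genes of this system tested, 8 fell on average (HSPA5, HSP90B1, KDELR3, KDELR2, MANF, PDIA4, EIF2AK3 and CALR) and none rose, against 4.33% of all genes that fell. In BV 10 fell, against 5.43% of all genes, and in S only HSPA5 was called, against 0.129% of all genes called lower there. The effect was negative in 29 of 31 members in BV and 27 in S, against 5370 and 5339 of all 10845 genes. The medians were -0.38 and -0.28. HSP90B1, the ER Hsp90, held 627, 676, 694 and 665 CPM in cyclic BV and 263, 335, 441 and 280.2 CPM in pregnant BV. In S it had 486, 539, 401 and 523 CPM and 315, 365, 275 and 342 CPM, and neither compartment overlapped. Its average effect was -0.76 ± 0.12 (adjusted p = 0.0124), called without each gilt in turn.

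KDELR3, a receptor that returns chaperones to the ER, had 96.3, 77.1, 35.7 and 120.4 CPM in cyclic BV against 30.5, 45.4, 32.3 and 25.6 CPM in pregnant BV, where cyclic gilt C78 fell among the pregnant values. Its S levels were 96.0, 101.2, 51.7 and 80.9 CPM and 39.8, 39.5, 34.3 and 27.98 CPM, without overlap. The effects were alike in size, -1.301 in BV and -1.22 in S (interaction 0.02, interval -0.57 to 0.61), and the average effect was called (adjusted p = 0.0187). MANF, a secreted ER stress protein, went from 22.7, 23.3, 13.5 and 22.7 CPM to 8.44, 8.94, 10.04 and 12.8 CPM in BV and from 19.6, 19.5, 15.5 and 19.9 CPM to 12.8, 15.01, 12.8 and 11.7 CPM in S. Its average effect was -0.76 ± 0.16 (adjusted p = 0.0232), and C78 was the lowest cyclic library in both compartments. The transcription factors of the response did not pass the test, with average effects of -0.28 for XBP1, -0.19 for ATF4, -0.196 for ATF6 and 0.24 for DDIT3. SERPINH1, the collagen chaperone of the ER, also fell on average (-0.84, adjusted p = 0.0392). The list count was 13 without C78, 5 without P139, 3 without C128 and 2 without C40, C42, P39 or P43. It was 1 with the epithelial covariate. Over all genes 525, 443 and 295 were called lower without C78, P139 and C128. Without C40, C42, P39 and P43 these were 103, 90, 124 and 93, and with the covariate 29.

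The ER stress response element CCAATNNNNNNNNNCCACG, bound by ATF6 and NF-Y, is shown where it occurs because it is the element that chaperone genes are known to share. In either direction it was present in 0.101% of the 10841 promoters, in 6 of the 31 ER genes and in 2 of the 8 that fell. The elements are in capitals:
HSP90B1 (chr5:80531017-80531266, minus strand): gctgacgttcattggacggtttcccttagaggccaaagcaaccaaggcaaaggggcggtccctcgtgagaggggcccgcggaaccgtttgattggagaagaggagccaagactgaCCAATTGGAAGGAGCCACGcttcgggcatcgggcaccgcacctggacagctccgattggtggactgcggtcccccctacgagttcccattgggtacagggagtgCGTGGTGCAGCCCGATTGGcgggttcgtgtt
CALR (chr2:66102075-66102324, minus strand): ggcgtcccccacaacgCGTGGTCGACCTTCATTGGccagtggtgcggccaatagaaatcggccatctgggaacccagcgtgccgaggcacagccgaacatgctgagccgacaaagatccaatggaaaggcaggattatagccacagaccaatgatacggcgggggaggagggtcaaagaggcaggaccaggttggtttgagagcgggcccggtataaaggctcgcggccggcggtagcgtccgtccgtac
HSP90B1 carried 1 element in each direction, ending 116 and 12 bases before the annotated gene, and CALR 1 in the reverse direction, ending 215 bases before it. For HSPA5 no exact copy of these letters lay in the window.

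Smooth muscle contracts through myosin, actin and their regulators, and in vessels it sets the tone of arteries and arterioles. Of 22 contractile genes tested, 7 fell on average (MYL6, VCL, MYLK, LPP, TAGLN, ACTN1 and TPM2) and none rose, against 4.33% of all genes that fell. In BV 7 were called lower, against 5.43% of all genes, and in S none was called, against 0.129% of all genes called lower there. The median was -1.21 in BV and -0.37 in S. The BV effect lay below the S effect in 21 of 22 genes, against 5639 of all 10845 genes. For 6 of the 22 the unadjusted interaction p was under 0.05, against 5.59% of all genes, and none was called. MYL6, a light chain of nonmuscle and smooth muscle myosin, had 432, 478, 828 and 458 CPM in cyclic BV against 127, 194, 156 and 289 CPM in pregnant BV. In S it had 161, 142, 194 and 246 CPM and 114, 111, 105 and 119 CPM, and in neither compartment did the groups overlap. MYL6 fell in BV (-1.52, adjusted p = 0.00414) and on average (-1.19 ± 0.14, adjusted p = 0.00751), the latter under every alternative setting and without each gilt.

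TAGLN, an actin-binding protein of differentiated smooth muscle, held 792, 1074, 1956 and 734 CPM in cyclic BV and 149, 312, 189 and 734 CPM in pregnant BV, where gilt P139 reached the level of the lowest cyclic library. In S the values were 99.5, 51.3, 129 and 138 CPM and 41.3, 35.9, 49.2 and 44.5 CPM, lower than in BV but also without overlap. The effects were -1.72 in BV (adjusted p = 0.0293) and -1.29 in S (adjusted p = 0.182). MYLK, the kinase that activates smooth muscle myosin, fell in BV, from 956, 1051, 1957 and 908 CPM to 343, 616, 286 and 779 CPM. In S its groups overlapped, with 248, 149.6, 202 and 326 CPM and 286, 260.4, 192 and 148 CPM. The effect was -1.27 in BV (adjusted p = 0.0343) and -0.07 in S, with an interaction of 1.27 (0.07 to 2.47, unadjusted p = 0.0407), not called. The smooth muscle marker sum, of which TAGLN and MYLK are themselves members, was also lower in pregnant BV except for gilt P139. It is therefore no separate measure of their fall. The list count was 16 without P139, 3 without P41, 2 without P39 or P43 and 1 without C40 or C42, and it was 1 with the epithelial covariate. Over all genes 443, 310, 124, 93, 103 and 90 were called lower without P139, P41, P39, P43, C40 and C42. With the covariate 29 were.

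Integrins and their adaptors anchor cells to the matrix. Of 32 adhesion genes tested 4 fell on average (ITGA9, VCL, ACTN1 and PARVA) and none rose, against 4.33% of all genes that fell, with medians of -0.34 in BV and -0.20 in S. DESeq2 called 2 of them higher and 9 lower, and the robust GLM 3 and 9. Over all genes these fits called 917 and 840, and 952 and 859. ITGA9, an integrin chain that binds tenascin and fibronectin, had 104, 127.8, 202 and 150.5 CPM in cyclic BV against 49.2, 66.7, 42.7 and 83.4 CPM in pregnant BV. In S it had 102, 66.1, 141 and 181 CPM against 45.4, 60.1, 40.7 and 57.8 CPM, so that both compartments were separated, and its effects were -1.27 in BV (adjusted p = 0.0169) and -1.27 in S (adjusted p = 0.0613). The average effect of ITGA9 (-1.28 ± 0.22) was called without each gilt and with the epithelial covariate. VCL, which links integrins to actin, ranged over 576 to 1504 CPM in cyclic BV against 282 to 596 CPM in pregnant BV, which overlapped, and over 232 to 379 and 168 to 220.4 CPM in S, which did not. Its average effect was -1.03 ± 0.19 (adjusted p = 0.0172). The list count was 10 without P139, 2 without P39 and 1 without C40, C42 or P43.

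Fibrillar collagens and the proteins bound to them form the matrix around stromal and vessel cells. Of 31 fibrillar collagen and matrix genes tested, 28 effects in BV and 21 in S were negative, against 5370 and 5339 of all 10845 genes. COL14A1 and SERPINH1 fell on average and none rose, a share above the 4.33% of all genes that fell, but of few genes. The count moved with the method, to 7 lower with DESeq2 (840 over all genes) and 11 with the robust GLM (859). It was 4 with the gilt as a random block (810) and 5 without C78 (525). COL14A1, a collagen on the surface of fibrils, held 1889.8, 1815, 1570.5 and 2076 CPM in cyclic BV against 976, 1425, 758 and 876 CPM in pregnant BV. In S the levels were 3654, 2338, 2572 and 2936 CPM and 1490.0, 1779.7, 901 and 449 CPM, and both compartments were separated. On average, the effect was -1.19 ± 0.28 (adjusted p = 0.0354). Of 18 basement membrane genes, COL15A1 (-1.17, adjusted p = 0.0369) and LAMA4 (-0.64, adjusted p = 0.0365), both found around vessels, fell on average, against 4.33% of all genes. When single gilts were left out, both calls were kept only without P139. With the epithelial covariate no gene of this list was called. LAMA3, a laminin chain of epithelium, rose (1.76, adjusted p = 0.0172). It was at least 4-fold more abundant in LE or GE than in the lower of BV and S.

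Among 23 matrix proteases and inhibitors the proteoglycan-cleaving ADAMTS9 and ADAMTS4 fell on average and none rose. That share was above the 4.33% of all genes that fell, but of few genes. DESeq2 and the robust GLM called 6 lower each, and 840 and 859 lower over all genes. ADAMTS9 had 211, 262, 132 and 327 CPM in cyclic BV and 143, 142, 131 and 147 CPM in pregnant BV, which overlapped at cyclic gilt C78. Its S libraries were separated, at 395, 337, 503 and 493 CPM and 151, 166, 207 and 131 CPM, and ADAMTS9 fell in S (-1.402, adjusted p = 0.0289). In BV it passed the test narrowly (-0.73, adjusted p = 0.049986), the interaction -0.74 (-1.495 to 0.02) was not called, and the average effect (-1.23 ± 0.15) was called under every alternative setting. ADAMTS4 had an average effect of -2.75 ± 0.62 (adjusted p = 0.0345) with a wide spread, 21.2 to 218 CPM in cyclic and 4.82 to 20.9 CPM in pregnant S, and its call was lost without any single gilt other than C78 or C128. DPT, a fibroblast marker that binds decorin, had 97.7, 68.0, 28.7 and 113 CPM in cyclic BV against 34.5, 38.0, 43.7 and 17.3 CPM in pregnant BV, where the groups overlapped, and 266, 107, 238 and 289 CPM and 39.8, 83.9, 52.9 and 18.8 CPM in S, where they did not. The average effect was -2.01 ± 0.41 (adjusted p = 0.024), and its interaction -1.13 (-2.203 to -0.07, unadjusted p = 0.0397) was not called. The fibroblast marker sum overlapped between the status groups in both compartments. Without C40, C128, P39 or P43 neither COL14A1 nor DPT was called.

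The complement cascade marks surfaces for removal by phagocytes and recruits immune cells. Of 19 complement genes tested 4 rose on average (C3, C2, C1QB and CFD) and none fell, against 4.36% of all genes that rose, with medians of 0.42 in BV and 0.85 in S against 0.00 and 0.01 for all genes. C3, the central component, held 138, 66.4, 145 and 53.1 CPM in cyclic BV and 524, 106, 331 and 289.7 CPM in pregnant BV, with overlap at gilt P41. In S, cyclic libraries had 94.3, 150.0, 39.1 and 69.8 CPM and pregnant libraries 1491, 211, 540.5 and 673 CPM, all above the cyclic ones but widely spread. The average effect of C3 was 2.597 ± 0.50 (adjusted p = 0.0217). Its S effect was 3.05 (adjusted p = 0.0498) and its BV effect 1.64 (adjusted p = 0.082), and the interaction of 1.31 (0.03 to 2.596, unadjusted p = 0.0453) was not called.

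C1QB, a chain of the recognition complex C1q made by macrophages, had 30.5, 37.8, 20.1 and 40.1 CPM in cyclic BV against 59.4, 50.3, 79.9 and 22.7 CPM in pregnant BV, where gilt P139 was the lowest pregnant library. Its S values were 48.3, 73.9, 43.8 and 55.0 CPM and 112, 83.2, 111 and 101.1 CPM, without overlap, and the average effect was 0.84 ± 0.16 (adjusted p = 0.0176). C2, the protease of the classical pathway, ranged over 8.25 to 25.1 CPM in cyclic and 18.3 to 62.6 CPM in pregnant S and over 8.05 to 10.1 and 4.13 to 26.2 CPM in BV, with overlap in both, and its average effect was 1.504 ± 0.34 (adjusted p = 0.0322). CFD, a serine protease of the alternative pathway with a 4-fold or larger excess in LE or GE, had an average effect of 0.94 ± 0.21 (adjusted p = 0.0284). The leukocyte marker sum was 611.6 to 1570 CPM in pregnant S against 492 to 654 CPM in cyclic S. In BV it was 380 to 943 CPM in pregnant and 415 to 668 CPM in cyclic libraries, with gilt P139 lowest. Of 8 leukocyte markers tested only TYROBP, a signalling adaptor of myeloid and NK cells, rose on average (0.75, adjusted p = 0.0401), against 4.36% of all genes. The call of TYROBP was lost without any single gilt, at adjusted p-values of 0.0522 to 0.104. DESeq2 and the robust GLM each called 4 leukocyte markers higher, and 917 and 952 genes higher over all genes. The complement count was 6 with the epithelial covariate, 2 without C42, C128 or P39, 1 without C40 and 0 without P43. Over all genes 49 were called higher with the covariate. Without C42, C128, P39, C40 and P43 these were 135, 338, 214, 140 and 162.

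Antigen presentation genes display peptides to T cells. Of the 24 tested, 23 had a positive effect in S and 19 in BV, against 5506 and 5475 of all 10845 genes. The medians were 0.89 in S and 0.36 in BV. Yet only CALR passed the test for the average effect, and it fell (-0.47, adjusted p = 0.044), against 8.7% of all genes that were called. The count depended on the method, with 11 higher and 1 lower by DESeq2, 12 and 1 by the robust GLM, and 8 and 1 with the 16 libraries taken as independent. CALR is also a chaperone of the ER list, and B2M is counted under 2 gene identifiers. The swine MHC genes share sequence, so their counts are uncertain. Without P41, 6 of the antigen presentation genes rose on average, and without C78, 1. Over all genes 362 rose without P41 and 507 without C78. Of 31 interferon-stimulated genes only the double-stranded RNA kinase EIF2AK2 passed the test and fell (-0.64, adjusted p = 0.0411), against 8.7% of all genes called. The list medians were 0.25 in BV and -0.20 in S. The call of EIF2AK2 was lost without any single gilt other than P41. DESeq2 called 10 interferon-stimulated genes higher and 2 lower, the robust GLM 10 and 4, and the fit to 16 independent libraries 8 and 2. Over all genes these fits called 917 and 840, 952 and 859, and 1062 and 1067, more than the main test in each direction. Without P41 the interferon list had 5 higher and 3 lower members, against 362 and 310 over all genes.

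Of 22 genes of the cell cycle tested, MCM6 and CCND1 fell on average, and CCND3, CDKN1B and CDKN1C rose, against 8.7% of all genes called. DESeq2 called 3 higher and 8 lower, and the robust GLM 3 and 13. Over all genes these fits called 917 and 840, and 952 and 859. MCM6, a subunit of the replicative helicase, had 75.9, 77.9, 39.4 and 57.9 CPM in cyclic BV against 23.1, 26.1, 20.8 and 21.9 CPM in pregnant BV. In S the values were 37.3, 38.5, 32.8 and 68.4 CPM and 24.4, 22.2, 26.6 and 30.3 CPM, with no overlap in either compartment. On average, the effect was -1.13 ± 0.19 (adjusted p = 0.0133). CCND3, a G1 cyclin, held 36.5, 35.7, 23.8 and 22.7 CPM against 64.2, 46.9, 54.5 and 44.2 CPM in BV and 18.5, 15.9, 27.8 and 22.9 CPM against 34.5, 28.4, 40.1 and 39.9 CPM in S, so that all pregnant libraries were higher. CCND3 rose by 0.75 on average (adjusted p = 0.0138), whereas its paralogue CCND1 fell by 0.74 on the log2 scale (adjusted p = 0.0302). The inhibitors CDKN1B and CDKN1C rose by 0.498 and 1.43 (adjusted p = 0.0283 and 0.0476). The list median was -0.75 in BV and -0.58 in S, and genes of mitosis such as MKI67 (-0.51) and TOP2A (-1.16) did not pass the test. Without C78 the list had 2 higher and 8 lower members, and without P139 1 and 10. Without C128, C40, C42, P39, P41 or P43 it had 2 or 3 called members in all, and with the epithelial covariate 0.

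In glycolysis, which converts glucose to pyruvate and lactate, 4 of 21 genes fell on average (PGK1, LDHA, PGAM1 and PDK1) and none rose, against 4.33% of all genes that fell. PGK1, an ATP-forming enzyme, had 89.9, 106, 96.8 and 82.5 CPM in cyclic BV against 44.0, 50.3, 43.4 and 37.6 CPM in pregnant BV. S levels were 60.2, 67.9, 56.9 and 74.3 CPM and 51.4, 44.7, 45.1 and 50.2 CPM, also separated but closer. PGK1 fell in BV (-1.099, adjusted p = 0.00138) and on average (-0.75 ± 0.11, adjusted p = 0.00925). Its S effect was -0.44 (adjusted p = 0.104), and the interaction of 0.67 (0.22 to 1.11, unadjusted p = 0.00791) was not called. The average effects of LDHA, PGAM1 and PDK1 were -0.65, -0.59 and -0.87, and the list medians -0.50 in BV and -0.09 in S. Of 21 genes of oxidative phosphorylation 0 were called on average in the quasi-likelihood test of edgeR (3 at an unadjusted p under 0.05), 0 by DESeq2 and 1, lower, by the robust GLM, with medians of -0.25 in BV and -0.09 in S. Without C40, C42, P39 or P43 only 1 glycolytic gene was called, and with the epithelial covariate 0.

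Progesterone and glucocorticoids act through nuclear receptors, and 4 of 24 receptors and targets rose on average (KLF9, PGRMC1, HAND2 and PER1), against 4.36% of all genes that rose. PGRMC1 had a 4-fold or larger excess in LE or GE. KLF9, a zinc finger factor that partners the progesterone receptor, held 9.19, 5.76, 20.1 and 8.09 CPM in cyclic BV against 26.4, 23.5, 17.9 and 22.7 CPM in pregnant BV. Its S values were 15.5, 17.3, 9.26 and 11.3 CPM and 46.1, 29.0, 25.3 and 15.8 CPM. The groups overlapped in both compartments through 1 library each, cyclic BV of gilt C78 and pregnant S of gilt P139, and the average effect was 1.16 ± 0.21 (adjusted p = 0.0162). HAND2, a stromal factor that mediates progesterone action, had 15.2, 8.50, 6.56 and 11.7 CPM and 24.6, 23.8, 28.7 and 12.8 CPM in BV, with overlap, and 20.7, 13.1, 19.0 and 21.6 CPM and 30.8, 22.2, 28.6 and 46.3 CPM in S, without. The average effect was 0.87 ± 0.20 (adjusted p = 0.0287). FOXO3, of the list of uterine transcription factors, rose as well (0.64, adjusted p = 0.0175). Without C42 no member of the steroid list was called, without C40 1, and without P39 or P43 2. With the epithelial covariate none was called either.

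IRS2, an adaptor of insulin and IGF receptors, was the only one of 14 IGF genes that passed the test on average, a share no larger than the 8.7% of all genes called. It held 12.1, 13.4, 19.7 and 5.83 CPM in cyclic BV and 59.4, 30.2, 45.5 and 51.2 CPM in pregnant BV. In S it held 24.5, 31.5, 25.1 and 8.89 CPM and 52.9, 41.4, 52.5 and 45.4 CPM, without overlap in either compartment, and rose by 1.41 on average (adjusted p = 0.0252). Of 31 angiogenic genes 4 rose on average, against 4.36% of all genes, and none fell. They were the PDGF receptor PDGFRB (0.52), the semaphorin and VEGF co-receptor NRP2 (0.51), the venous receptor EPHB4 (0.64) and the endothelial receptor TIE1 (0.901). Cyclic levels of PDGFRB were 165 to 262 CPM in BV and 284 to 314 CPM in S. With the gilt as a random block 4 rose and 2 fell, and the robust GLM called 7 higher and 2 lower. Over all genes these fits called 702 and 810, and 952 and 859. VEGFA itself had effects of -0.302 in BV and 0.09 in S, neither called. The angiogenic count was 2 without C128, 1 without C40 or P39 and 0 without C42 or P43 or with the epithelial covariate. The call of IRS2 was lost without C40, C42, P39 or P43.

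In Wnt signalling, DKK3, a secreted glycoprotein of the Dickkopf family, fell and LEF1, a factor that acts with beta-catenin, rose among 29 genes tested, a share no larger than the 8.7% of all genes called. DKK3 had 34.2, 57.0, 45.5 and 71.5 CPM in cyclic BV against 23.1, 29.1, 24.0 and 43.7 CPM in pregnant BV, which overlapped. The values in S were 79.9, 75.7, 82.0 and 72.4 CPM and 49.1, 35.2, 44.4 and 38.99 CPM, which did not, and its average effect of -0.89 ± 0.12 (adjusted p = 0.00808) was called under every alternative setting. LEF1, with a 4-fold or larger excess in LE or GE, rose by 0.71 (adjusted p = 0.0205). Of 32 TGF-beta and BMP genes, ID2 (0.998) and TGFB1 (0.49) rose and BMPR1A (-0.47) and SMAD5 (-0.39) fell. That share was above the 8.7% of all genes called, but of few genes. Of 27 cytokine and STAT genes, STAT6 (0.54), CSF1 (0.84) and IL6R (0.85) rose, against 4.36% of all genes. ID2 and IL6R had a 4-fold or larger excess in LE or GE. Of 20 immediate-early genes the AP-1 subunit FOSL2 rose (0.71, adjusted p = 0.0424), a share near the 4.36% of all genes that rose. Each of these TGF-beta, BMP, cytokine and AP-1 calls was lost without C40.

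**Figure D4:**
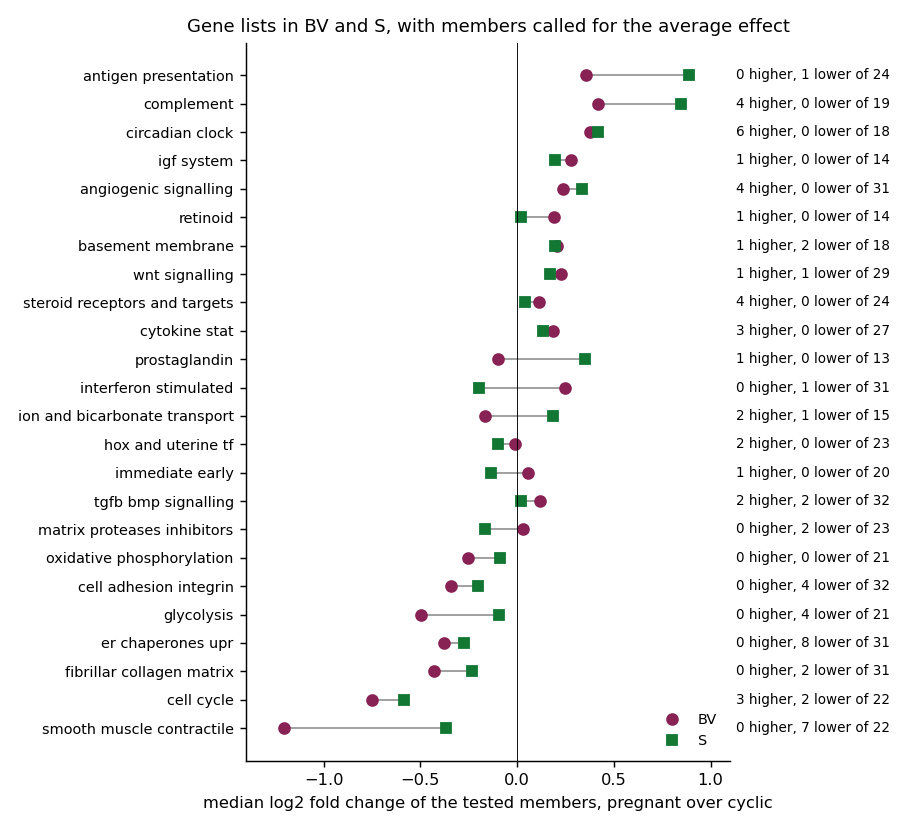
Median log2 fold change (pregnant over cyclic) of the tested members of 24 gene lists in BV (circles) and S (squares), ordered by the median of the average effect, with the number of members called higher and lower on average at the right. Contractile genes lie at -1.21 in BV and -0.37 in S, complement at 0.42 and 0.85, and clock genes at 0.38 and 0.42.

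The largest shared changes outside these lists were taken from 576 genes with a called average effect, an unadjusted p under 0.05 of the same sign in both compartments and an unadjusted interaction p of at least 0.05, a rule added after the values were seen. GRIK1, a kainate-type glutamate receptor subunit, had 14.7, 8.23, 4.10 and 4.21 CPM in cyclic BV against 80.0, 32.4, 84.6 and 28.9 CPM in pregnant BV. Its S values were 12.5, 41.4, 8.59 and 5.86 CPM and 81.4, 81.9, 47.5 and 53.9 CPM, and all pregnant libraries were above the cyclic ones. The average effect was 2.37 ± 0.43 (adjusted p = 0.0188). IL3RA, the alpha chain of the IL3 receptor, had 21.8, 37.3, 21.7 and 11.7 CPM and 127.7, 57.0, 66.3 and 25.6 CPM in BV, with overlap at gilt P139. In S its values of 8.45, 14.1, 9.77 and 7.18 CPM and 24.4, 16.3, 46.1 and 60.8 CPM did not overlap, and the average effect was 1.75 ± 0.35 (adjusted p = 0.0227). SLC43A2, a transporter of large neutral amino acids, had 19.5, 14.0, 21.3 and 11.3 CPM and 58.0, 27.6, 47.3 and 28.1 CPM in BV and 18.0, 21.6, 20.05 and 19.3 CPM and 65.3, 43.1, 48.2 and 56.9 CPM in S. It rose in both compartments taken one at a time, by 1.29 in BV (adjusted p = 0.00786) and 1.43 in S (adjusted p = 0.036). CCDC146, TMEM140 and NATD1 rose on average by 1.37, 1.39 and 1.31. GRIK1 and IL3RA kept their call with the epithelial covariate but not without C40 or P43, and IL3RA not without P39. Over the 8 fits that left out 1 gilt, their lowest effects were 2.12 and 1.54.

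Among the genes that fell most, SEC16B, which organises ER exit sites, had 12.9, 13.7, 6.56 and 18.4 CPM in cyclic BV against 1.47, 5.96, 3.23 and 7.43 CPM in pregnant BV, where gilt P139 lay above cyclic gilt C78. The S libraries held 24.5, 24.8, 17.4 and 29.5 CPM and 6.38, 7.51, 7.41 and 1.15 CPM, without overlap, and the average effect of -1.99 ± 0.27 (adjusted p = 0.00808) was called under every alternative setting. ZNF367 (-2.199), a zinc finger protein, PYGM (-1.94), the muscle glycogen phosphorylase, and PYCR1 (-1.47), an enzyme of proline synthesis, fell on average. FILIP1L (-1.63), MAP1B (-1.52), a protein that binds microtubules, SLC35E3 (-1.72), GALNT5 (-1.600), a glycosyltransferase, and TCEAL9 (-1.39) fell too. FILIP1L and MAP1B had their highest BV levels in cyclic gilt C78, as did TAGLN.

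The 2 largest average effects by this rule, those of MMRN1 and PROX1, rested on few libraries. PROX1 is the master factor of lymphatic endothelium, and MMRN1 encodes multimerin, which lymphatic endothelium makes. PROX1 had 4.88, 3.57, 1.64 and 11.004 CPM in cyclic BV and 4.40, 8.20, 7.17 and 209 CPM in pregnant BV, where gilt P139 alone was high. S levels were 0.818, 1.77, 0.842 and 0.945 CPM in cyclic and 127.9, 25.8, 15.2 and 0 CPM in pregnant libraries, with gilt P39 highest and gilt P139 at 0. MMRN1 followed the same libraries, with 2.30, 0, 0 and 7.44 CPM and 4.04, 0, 7.89 and 178 CPM in BV and 0.818, 0, 1.18 and 0.756 CPM and 91.5, 29.4, 10.4 and 0.688 CPM in S. The groups overlapped in both compartments for both genes, and the average effects were 3.89 ± 0.72 and 4.53 ± 0.86 (adjusted p = 0.0205 and 0.0216). A list of 8 lymphatic genes, drawn up after these values were seen, summed to 730.1 CPM in pregnant BV of gilt P139 and 432 CPM in pregnant S of gilt P39. In the 8 cyclic libraries it summed to 19.3 to 69.9 CPM. LYVE1, RELN, FLT4 and CCL21 were likewise highest in those libraries, with FLT4 at 77.6 CPM and 43.5 CPM there. Without C40 or C42 neither PROX1 nor MMRN1 was called, and without P39 MMRN1 was not. With the gilt as a random block, or with the epithelial covariate, no gene of the lymphatic list was called on average. Whether lymphatic vessels in single captures account for these effects was not tested.

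Genes most abundant in epithelium formed a distinct share of the calls. Of the 943 genes 164 were at least 4-fold more abundant in LE or GE than in the lower of BV and S (background 7.66% of genes). Of these 164, 160 were higher and 4 lower in pregnant gilts. Their median effect when higher was 1.54 in BV and 0.97 in S, beside 0.78 and 0.65 for the 313 other higher genes. ACP5, an iron-containing acid phosphatase (uteroferrin) that glands secrete in pigs, had 10.6, 3.29, 2.87 and 5.50 CPM in cyclic BV against 369, 31.7, 585 and 364 CPM in pregnant BV. The values in S were 4.91, 11.3, 12.1 and 5.86 CPM and 52.5, 146, 75.1 and 40.4 CPM, and no library overlapped. On average, the effect was 4.72 ± 0.41 (adjusted p = 0.00654). UABP-2 (4.94), which encodes a secreted uteroferrin-associated protein, SLC39A2 (4.86), a zinc transporter, MEP1B (4.501), a metalloprotease, and RBP4 (4.07), the retinol carrier, rose on average by similar amounts. Their cyclic BV levels were 0 to 4.51, 0 to 6.97, 0.971 to 12.3 and 0 to 19.3 CPM. In cyclic S they were 0 to 2.36, 0 to 7.92, 0.756 to 13.8 and 2.65 to 62.2 CPM. Levels near 0 leave the size of these effects uncertain. The groups of UABP-2 overlapped in BV and those of RBP4 in S. The call of RBP4 was kept only without C78, and that of UABP-2 was lost without gilts C40, C42 or P43. The sodium-calcium exchanger SLC8A1 fell (-0.63), a call kept only without P139 when single gilts were left out. PTGER2 (2.08), a prostaglandin E2 receptor, and SLC12A2 (1.47), a chloride cotransporter, were of the same kind as RBP4 and UABP-2. PTGER2 kept its call only without C78, and SLC12A2 lost it without C40, C42, P39 or P43. The epithelial marker sums moved with these genes, and their part in them was not tested. Without all 831 genes of this kind, 801 genes were called on average, 385 higher and 416 lower, and NR1D1 and HSPA5 again were the 2 called in both.

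Since the quasi-likelihood test called no interaction, no gene is given as responding in one compartment only. The genes with the smallest interaction p in each direction are described as candidates without a call. PTGES3L, a co-chaperone-like gene, had 35.6, 35.4, 74.2 and 39.8 CPM in cyclic BV against 9.17, 14.9, 8.60 and 21.5 CPM in pregnant BV. In S the groups overlapped at lower levels, 5.45, 3.18, 8.59 and 8.51 CPM and 3.75, 6.53, 6.06 and 8.26 CPM. PTGES3L fell in BV (-1.77, adjusted p = 0.00829), its S effect was -0.09, and the interaction was 1.73 (0.97 to 2.48, unadjusted p = 0.000491, adjusted p = 0.75). DHRS3, which reduces retinal to retinol, had 96.3, 129, 167 and 107 CPM and 110.1, 95.7, 92.1 and 162 CPM in BV, with overlap. The S libraries held 29.4, 15.9, 33.5 and 32.1 CPM and 69.8, 52.9, 65.3 and 67.4 CPM, without overlap and below BV, with an S effect of 1.19 (adjusted p = 0.0498). The interaction was 1.35 (0.68 to 2.02, adjusted p = 0.853).

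PTCH1, the Hedgehog receptor, had the smallest interaction p of the genes named. Its levels were 92.5, 104, 130.02 and 562 CPM in cyclic BV against 78.2, 80.5, 74.2 and 63.1 CPM in pregnant BV, and 33.5, 64.0, 47.0 and 272 CPM in cyclic and 102, 72.1, 81.8 and 81.0 CPM in pregnant S. Cyclic gilt C128 was far above all others in both compartments. The BV effect of -1.58 and the S effect of -0.31 were not called, and the interaction was 1.35 (0.86 to 1.84, unadjusted p = 0.000118, adjusted p = 0.641). It was called by DESeq2 (adjusted p = 0.00174) and the robust GLM (adjusted p = 0.00337), and the latter also called PTGES3L and DHRS3 (adjusted p = 0.0246 and 0.0178). ALCAM, a cell adhesion molecule, and ZFHX3, a transcription factor, had interactions of 0.87 and 0.87.

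In the other direction, KDM6B, a histone H3 lysine demethylase, rose in BV, from 14.7, 11.5, 11.9 and 16.8 CPM to 42.2, 22.0, 34.4 and 32.6 CPM (1.25, adjusted p = 0.00438). In S its groups overlapped, with 21.5, 25.1, 27.0 and 30.6 CPM and 39.8, 25.8, 34.7 and 26.8 CPM. The interaction was -0.96 (-1.46 to -0.46, adjusted p = 0.853). PPOX, an enzyme of heme synthesis, had 11.2, 13.4, 10.3 and 12.0 CPM and 18.3, 17.5, 18.6 and 17.7 CPM in BV, and rose there (0.62, adjusted p = 0.0459). S levels were 27.5, 21.2, 27.6 and 25.7 CPM and 18.0, 16.6, 24.6 and 13.1 CPM, with an effect of -0.51 (adjusted p = 0.171) and an interaction of -1.15 (-1.76 to -0.54). FBXW4 rose in BV (0.79, adjusted p = 0.0227), with an interaction of -0.897, and those of the deubiquitinase USP22 and of SERINC5 were -0.82 and -0.73. None of these was called in the quasi-likelihood test under any alternative setting.

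**Figure D5:**
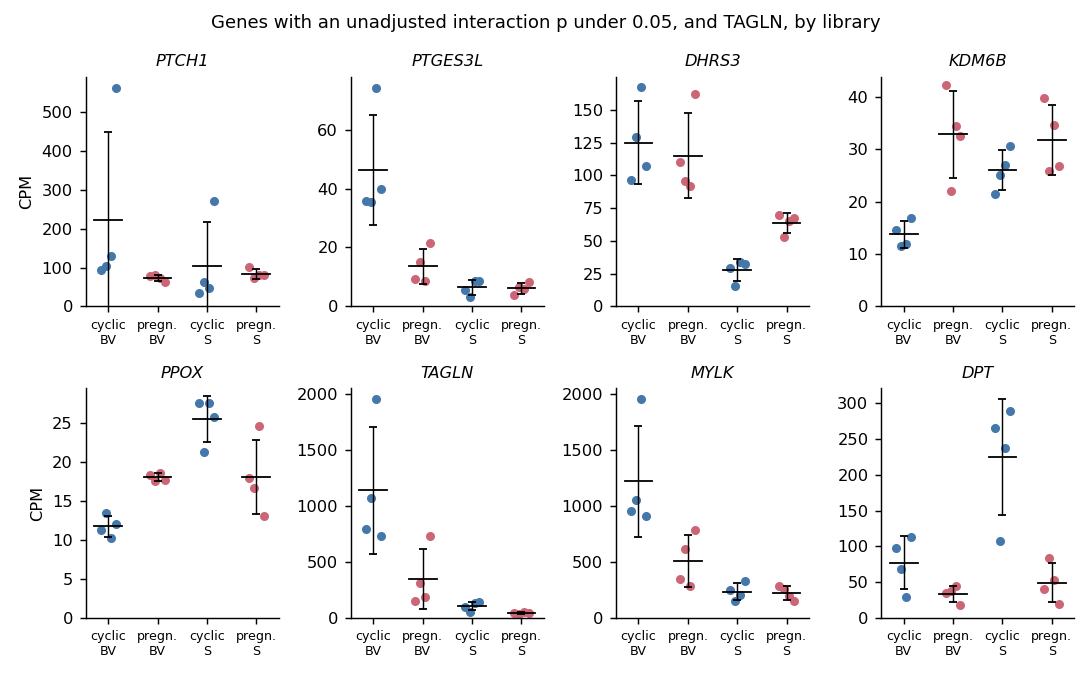
CPM (linear axis from 0) in the 16 libraries, with mean and SD of 4 gilts, of PTCH1, PTGES3L, DHRS3, KDM6B and PPOX (named for a small interaction p), TAGLN, MYLK and DPT (blue, cyclic; red, pregnant). PTGES3L, KDM6B and PPOX separate the groups in BV but not in S, DHRS3 and DPT in S but not in BV, and 1 cyclic gilt carries the high PTCH1 values.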

How the data were processed

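Endometrial compartments had been cut from cryosections by laser capture, and RNA was sequenced as single reads (Ovation SoLo kit). According to the methods, the authors used Trim Galore for trimming, Hisat2 for mapping to Sscrofa11.1 (NCBI), NuGEN nudup to remove PCR duplicates and QuasR to count reads per gene. The deposited values are raw counts per gene and library, without normalization, and the authors' filtered tables hold the same counts for genes above a CPM minimum whose value is not given in the sources used here.

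The 8 BV and 8 S libraries were grouped by the labels, where a number marks 1 gilt in both compartments. Deviations of the libraries of a gilt from their group means correlated at r = 0.0573 to 0.321. The average effect was tested on BV and S counts summed per gilt, the BV and S effects as contrasts of 1 fit of the 16 libraries, and the interaction with gilt as a block. All used edgeR 4.0.16 in R 4.3.3 (quasi-likelihood test, robust, TMM) with Benjamini-Hochberg adjustment over 10845 genes, called at 5%. A response in both took the larger of the p-values of BV and S with the same sign. All adjusted p-values in the text come from this test unless another is named. The fits were run on simulated counts with large changes in well-counted genes and no gilt effect. That run does not bear on small changes or on the pairing within gilts. CPM used the TMM factors of the 16 libraries.

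Named genes have an official symbol, at least 5 CPM in a group of each compartment and less than 4-fold higher levels in LE or GE than in BV and than in S. They are those responding in both, the 5 smallest interaction p-values per direction, and up to 4 members of each list with the smallest p of the average effect, where the limits on level and on LE or GE were not applied. The members, lists and rules were chosen with earlier results of these data known. Added after the values were seen were the largest shared changes, genes abundant in epithelium by the same measure, and the lymphatic list. Alternatives were other size factors, filters, tests (DESeq2 1.42.0, the robust GLM of edgeR, voomLmFit with limma 3.58.1), thinned counts, a 1% threshold, epithelial and ribosomal RNA genes, and each gilt left out. Promoters were read from RefSeq, Sscrofa11.1, as the 250 bases before the annotated gene, for 10841 genes. A few items are not reported here.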

Additional observations from a re-analysis of the deposited data

Results flagged for a closer look

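In groups of 4 libraries, a library was singled out where its gap to the nearest other took up more than Dixon's critical share of the range. Of 180 groups checked 15 met this. The groups share libraries and genes, and some were chosen after their values were seen, so that no share by chance can be set beside this count. Cyclic gilt C78 accounted for 5 of them. In cyclic BV it was lowest for MANF, at 13.5 CPM against 22.7 CPM for the next, and highest for MYL6 (828 CPM against 478 CPM), MYLK (1957 CPM against 1051 CPM) and PTGES3L (74.2 CPM against 39.8 CPM). In cyclic S it was lowest for MANF, at 15.5 CPM against 19.5 CPM.

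Pregnant gilt P139 accounted for 5 in BV. It was highest for MMRN1 (178 CPM against 7.89 CPM), PROX1 (209 CPM against 8.20 CPM), the epithelial marker sum (360 CPM against 219.8 CPM) and the lymphatic sum (730.1 CPM against 53.9 CPM). Its endothelial sum was the lowest, at 2017 CPM against 3116 CPM.

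Cyclic gilt C128 was highest for PTCH1 in both compartments, at 561.5 CPM against 130.02 CPM in BV and 272 CPM against 64.0 CPM in S, and for MCM6 in S, at 68.4 CPM against 38.5 CPM. Cyclic gilt C42 was highest for PROX1 in S, at 1.77 CPM against 0.945 CPM. The erythrocyte sum of cyclic S was highest in gilt C40, at 1145 CPM against 311 CPM.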

How the results depend on the processing

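None of the 86 named average effects, the 10 named interactions and the 2 joint calls turned its sign under an alternative, whereas the balance of higher and lower calls did. Leaving out 1 gilt at a time gave 225 to 1032 average calls, 426 to 1218 in BV, 0 to 181 in S, 0 to 52 in both compartments, 0 to 1 interactions and 0 to 1 responses in one compartment. DESeq2 called 1757 genes on average, 449 in S, 162 in both, 9 interactions and 6 in one compartment, and the robust GLM 1811, 487, 164, 29 and 21. With an epithelial covariate the counts were 78 on average, 117 in BV, 26 in S and 1 in both. At a threshold of 1% they were 68 on average, 229 in BV, 0 in S and 0 in both. Without a filter 15 genes were called in S and 1 for the interaction, with filterByExpr 24 in S and 0 in both, and without the ribosomal RNA genes 21 in S and 0 in both. DESeq2's size factors gave 0 in both and thinned counts 1. The share of higher genes among the average calls was 50.2% and moved by more than 10 points at the 1% threshold (76.5%), with the epithelial covariate (62.8%) and without P39 (63.3%) or P43 (63.5%). In S it was 66.7%, against 40.9% without C78, 50% without P41 or with the random block, 51.7% with DESeq2 and 55.8% without genes 4-fold higher in LE or GE, and all 5 calls without P39 were higher. In BV 551 genes were higher and 589 lower, against 866 and 816 with the robust GLM, 289 and 245 without P39, 472 and 414 without P41, and 66 and 51 with the epithelial covariate.

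With the gilt as a random replicate block 1512 genes were called on average, 90 in S and 1 in both. Without a replicate block, with the 16 libraries taken as independent, 2129 were called on average, 911 of them among the 943. The interaction stayed at 0 calls with either pairing.

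Of 86 named genes with a called average effect, 10 were called under every alternative and 22 without each gilt in turn. With the epithelial covariate 14 kept the call. The cause of these changes was not tested. With 4 gilts per group and totals from 2415216 counts, the interaction interval reached 0.66 to either side in the median gene.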
